A study of Mus musculus with 21 samples.

Results

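The late phase of drug withdrawal was examined in 3 murine pancreatic ductal adenocarcinoma (PDAC) cell lines, #3, #7 and #9, by setting the RNA of cells cultured without trametinib for 12 passages (P12) against that of the same line after 5 passages (P5). These 6 samples of the 21 in the series were chosen by their titles alone, as the lines in which both withdrawal times were sequenced. Each line came from the tumor of 1 genetically engineered mouse, in which Cre under the pancreatic Ptf1a promoter (Ptf1awt/Cre) deletes Trp53 (Trp53loxP/loxP). All states of a line share these engineered alleles. Parental cells were never treated, and resistant cells were grown in rising doses of the MEK inhibitor trametinib until they proliferated in it. Where genomes were sequenced, resistant populations were clonal, which limits the withdrawal states as samples of the parental population. Each state of a line was 1 culture, so that the spread used below is that between lines and not between repeat withdrawals of a line.

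Trametinib blocks MEK, the kinase that activates ERK, and ERK in turn induces transcription factors of the ETS family together with its own inhibitors, the dual-specificity phosphatases and the Sprouty proteins. The level of these mRNAs is therefore a familiar readout of pathway output. PDAC cells move between an epithelial, gastric-like or classical state with mucins and the transcription factors HNF4A and GATA6, and a mesenchymal state with matrix and cytoskeletal genes. The comparison of P12 with P5 asks which of these programs had settled by the earlier time and which still moved.

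The values were normalized counts per gene, which summed to between 28.6 M and 33.9 M in the 6 samples. Low values lay on whole-read steps for 59.8% to 73.2% of entries within 0.05 of a read, and by these steps 3 reads corresponded to 2.62 to 3.64 normalized counts, so that a value under about 4 stands for a few reads. For P5 of lines #7 and #9 the description gives 12 drug-free passages while the title gives 5, and the title was followed. P5 and P12 of these lines were about as far apart as those of line #3, where title and description match. Without repeat cultures of a state, this distance cannot tell which of the labels is right. The Euclidean distance over 19300 genes on the log2 scale was 103.5, 112.0 and 105.3 for lines #3, #7 and #9, against 231 to 302.5 between samples of different lines. Keratins and other markers of ductal and carcinoma epithelium were measured in all 6 samples, with a summed level of 3435 to 242620 normalized counts at P5 and 4068 to 213457 at P12. Of the 11 acinar markers measured, 7 stayed under 10 normalized counts in all 6 samples.

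Across the lines, hardly any gene differed between P5 and P12 beyond the spread of the lines. Of 16329 genes tested with limma and the line as a block, 1 passed an adjusted p of 0.01 and a fold change of 2 (0.00612% of genes tested), and it was higher at P12, while 0 were lower. At an unadjusted p under 0.05 there were 869 genes, or 5.32% of those tested, 399 higher and 470 lower. With 3 lines an exact sign-flip test of a single value cannot give a two-sided p under 0.25, so that only the model across all genes can pass a threshold here.

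The gene past the threshold was Gm10052, a processed pseudogene at chr9:123689233-123690192 on the minus strand (GRCm38). It was listed at 0 in all 3 P5 samples and at 476, 529 and 345 at P12 of lines #3, #7 and #9 (adjusted p = 0.00286, limma). Its 960 bases are identical over their whole length to the transcript of Hnrnpa1, which encodes an abundant RNA-binding protein of splicing. The first 60 bases of the pseudogene transcript (chr9:123690133-123690192, GENCODE M21 transcript sequence) are shown because they are shared with Hnrnpa1 letter for letter.
Gm10052: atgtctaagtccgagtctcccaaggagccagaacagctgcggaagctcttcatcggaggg
All 960 bases were found in 2 of the 5 annotated Hnrnpa1 transcripts. Hnrnpa1 itself stood at 16250.4 and 14728 normalized counts at P5 and P12 of line #3, 11690.2 and 10345 for line #7 and 18032 and 19007 for line #9. The parental and resistant samples switched as well, since Gm10052 was at 693, 151 and 1012 in the parental cells of lines #3, #7 and #9 and at 700, 808 and 0 in the resistant cells. Reads of the pseudogene and of Hnrnpa1 cannot be told apart, and the call is therefore uncertain.

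Most genes that moved more than 2-fold did so in 1 line only. Each line gave 1 pair of samples and no test, so the spread of repeat cultures is not known. A count that asks for all 3 lines cannot exceed that of a single line. Of the genes tested, 1342 differed by more than 2-fold between P5 and P12 in line #3 (621 higher and 721 lower), 1533 in line #7 (661 and 872) and 1359 in line #9 (598 and 761). The median difference of all genes lay within 0.02 of 0 on the log2 scale in each line. Among 11716 genes with a mean of at least 100 normalized counts, 4.10%, 4.63% and 3.62% moved more than 2-fold in lines #3, #7 and #9. In at least 1 line 1155 did so, and 908 of these (78.6%) in 1 line only. Shares this small leave little room for overlap between lines, so that the 78.6% does not show changes particular to a line. All 3 lines moved more than 2-fold in the same direction in 17 of these genes, 6 upward and 11 downward, and 107 moved upward in one line and downward in another. Across genes, which are not independent replicates, Pearson's r between the differences of 2 lines was 0.08 for #3 and #7, 0.09 for #3 and #9 and 0.04 for #7 and #9.

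**Figure D1:**
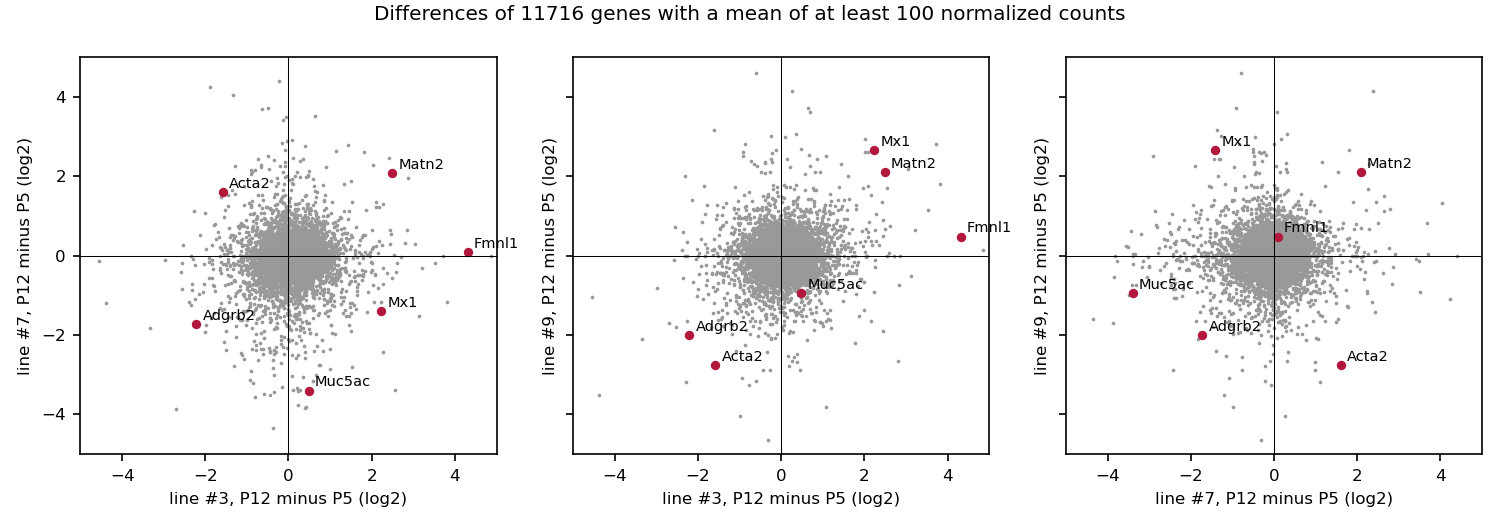
Log2 differences P12 minus P5 of each line (x and y axes) for 11716 genes with a mean of at least 100 normalized counts over the 6 samples, 1 panel for each pair of lines and 1 point for each gene; 20 genes lie outside the axes. The clouds are round, with r of 0.04 to 0.09. Matn2 lies in the upper right of each panel and Adgrb2 in the lower left, whereas Fmnl1, Muc5ac, Mx1 and Acta2 lie away from the diagonal in at least 1 panel.

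The line itself accounted for 90.6% of the sum of squares over the 6 samples and the time for 3.36%, against 5.99% left over, which is 3.36% per degree of freedom for the time and 3.00% for the rest.

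Of the 28 genes on the list of ERK output and feedback, 4 were called higher at P5 than on drug (Egr1, Etv4, Etv5 and Spry4, against 0.122% of the 18101 genes of a fit over 12 samples), 0 were called lower, and 0 were called between P5 and P12. Etv4, an ETS factor induced by ERK, stood at 2705, 4.58, 5618 and 6431 normalized counts in parental, resistant, P5 and P12 cells of line #3. The same order gave 1931, 1.28, 6127 and 4898 in line #7 and 6573, 1.62, 7834 and 8573 in line #9. Every P5 and P12 value lay far above every resistant value, and the P5 and P12 values overlapped. Between resistant and P5 cells Etv4 rose by 10.97 ± 0.41 (SE) on the log2 scale (adjusted p = 1.03e-05, limma over 12 samples), whereas P12 minus P5 was 0.00 ± 0.13 (adjusted p = 1.00).

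Spry4, which encodes a Sprouty feedback inhibitor, was at 3.09, 7.12 and 0 in resistant cells of lines #3, #7 and #9. It stood at 1569, 2185 and 1375 at P5 and at 1293, 2724 and 1442 at P12. The rise from resistant to P5 passed the test (9.03 ± 0.52 on the log2 scale, adjusted p = 0.0002), and P12 minus P5 was 0.04 ± 0.14. Dusp6, the phosphatase that inactivates ERK, had values of 60.7, 681 and 4.49 in resistant cells, of 8352, 18671 and 4664 at P5 and of 9725, 16848 and 6303 at P12. It was higher at P5 than on drug in each line, although its adjusted p of 0.0256 missed the 0.01 threshold, and P12 minus P5 was 0.17 ± 0.13.

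Between P5 and P12 the median difference of the 28 genes was 0.01 on the log2 scale against -0.00 over all genes tested, and 3 were higher and 4 lower at P12 in all 3 lines. For all genes tested these shares were 12.8% and 13.5%. On average over the list, P5 cells lay 3.75, 2.33 and 4.70 above resistant cells on the log2 scale in lines #3, #7 and #9, and within 0.41 of the parental cells. Among the members with one direction, Spred3, an inhibitor of RAF activation, went from 1540 to 2294 in line #3, from 1399 to 1944 in line #7 and from 1012 to 1355 in line #9 (0.49 ± 0.11, adjusted p = 0.892). Etv1, another ETS factor, went from 1662 to 2666, from 17.6 to 55.0 and from 2508 to 2534. Dusp1, a phosphatase of the stress kinases and an immediate early gene, was lower at P12, at 113 against 149 in line #3, 269 against 598 in line #7 and 229 against 405 in line #9. It had been at 107, 3656 and 456 in the resistant cells, above the P5 value in lines #7 and #9, with P5 minus resistant at -0.77 on the log2 scale (adjusted p = 0.782, limma). Phlda1, which encodes a pleckstrin-homology protein, went from 1741 to 1579, from 1340 to 989 and from 2302 to 1502. Of the 19 AP1 subunits measured, 16 were tested and 0 called between P5 and P12, with a median of -0.06. In all lines 1 was higher and 4 lower. Unlike the ERK list, the AP1 list lay on average only 0.60, 0.08 and 0.48 above resistant cells at P5. Jun stood at 1661 and 1906, at 706 and 625 and at 3144 and 3381 at P5 and P12 of the 3 lines (0.04 ± 0.12). Atf3 and Mafk had negative differences in each line and Fosl1 positive ones.

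In the model over 12 samples, which shares its P5, resistant and parental samples among the contrasts, 22 genes differed between P5 and resistant cells (0.122% of 18101 tested), 17 higher and 5 lower, and 36 between P12 and resistant cells (0.199%), 27 higher and 9 lower. Between P12 and P5, 0 genes passed in this fit, with 51 at an unadjusted p under 0.05. The 5 genes lower at P5 than on drug were Adcy1, Arhgef26, Cgn, Npr3 and the predicted Gm43601, which are named because they are few and were chosen after their values were seen. Npr3, a clearance receptor for natriuretic peptides, fell from 309 to 21.7 in line #3, from 456 to 4.13 in line #7 and from 64679 to 864 in line #9 by P5, and stood at 10.5, 3.07 and 327 at P12. Cgn, the tight junction protein cingulin, fell from 14868 to 1244, from 11813 to 1981 and from 1261 to 215, and then stood at 1355, 2195 and 217.

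Against the parental cells, 2 genes passed the threshold at both withdrawal times (0.011% of 18101 tested in each contrast), also named after their values were seen. Cldn6, which encodes a claudin of embryonic epithelia, was at 4313, 5971 and 1048 in the parental cells of lines #3, #7 and #9. It was at 0, 4.07 and 1.26 in the resistant cells and listed at 0 in all P5 and all P12 samples (adjusted p = 0.000824 at both times). Tenm3, a teneurin adhesion protein, was at 162, 45.8 and 274 in parental cells, at 6415, 1788 and 8222 at P5 and at 3962, 1771 and 8124 at P12. It was higher than parental by 5.15 ± 0.24 on the log2 scale at P5 and by 4.91 ± 0.24 at P12 (adjusted p = 0.000143 and 0.000216). Both genes thus lay on the side of the resistant cells at both times. Few calls do not mean a return to parental. At an unadjusted p under 0.05 (limma), 1756 genes differed from parental at P5 and 1547 at P12, and 2035 and 2555 from resistant. Line #3 lay 278.9 and 268.9 from its parental cells at P5 and P12 (Euclidean distance) and 224.5 and 246.6 from resistant. Line #7 lay 198.6 and 199.9 from parental and 230.2 and 245.1 from resistant, and line #9 197.0 and 199.4 against 221.9 and 235.7.

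To follow reversion without choosing genes in the lines measured, genes were selected in lines #4, #6 and #10 and then read in lines #3, #7 and #9. Of these, 504 genes were more than 2-fold higher on drug and more than 2-fold lower again at P12 in all 3 selecting lines, and 439 went the opposite way. Of the 504 genes, 275 passed the filter on low values, and all 504 enter the means. Their mean log2 level went from 3.67 in parental to 7.59 in resistant, 5.24 in P5 and 4.73 in P12 cells of line #3. In line #7 it went from 3.82 to 5.86, 4.25 and 3.77, and in line #9 from 4.29 to 5.73, 4.33 and 4.10. By P5 these genes had covered 60.1%, 78.9% and 97.1% of the way from the resistant to the parental level in lines #3, #7 and #9, and by P12 73.0%, 102.5% and 113.4%. The late step was the same sign in the 3 lines, -0.51, -0.48 and -0.24, with a mean of -0.41 ± 0.15 (SD, n = 3 lines), against -1.79 ± 0.50 between resistant and P5 cells. Of the 504 genes, 119 were lower at P12 in all 3 lines and 14 higher (23.6% and 2.78%). The shares over all genes tested were 13.5% and 12.8%. Those cover only genes past the filter, whereas the 504 also hold genes below it, so the shares are not on the same base.

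The 439 genes that were lower on drug, of which 371 passed the filter, had covered 68.6%, 113.1% and 84.4% of the way back by P5 in lines #3, #7 and #9, and 78.2%, 116.2% and 89.0% by P12. Their mean level was 7.61, 3.71, 6.38 and 6.76 in parental, resistant, P5 and P12 cells of line #3. It was 7.89, 5.14, 8.25 and 8.34 in line #7 and 6.84, 4.22, 6.43 and 6.55 in line #9. The late step added 0.37, 0.08 and 0.12, a mean of 0.19 ± 0.16 (SD, n = 3) that was 0.10 without line #3, after 2.67 ± 0.45 between resistant and P5 cells. In 108 genes P12 was higher in all 3 lines and in 29 lower (24.6% and 6.61% of the 439). Over all genes tested, which all passed the filter, the shares were 12.8% and 13.5%.

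**Figure D2:**
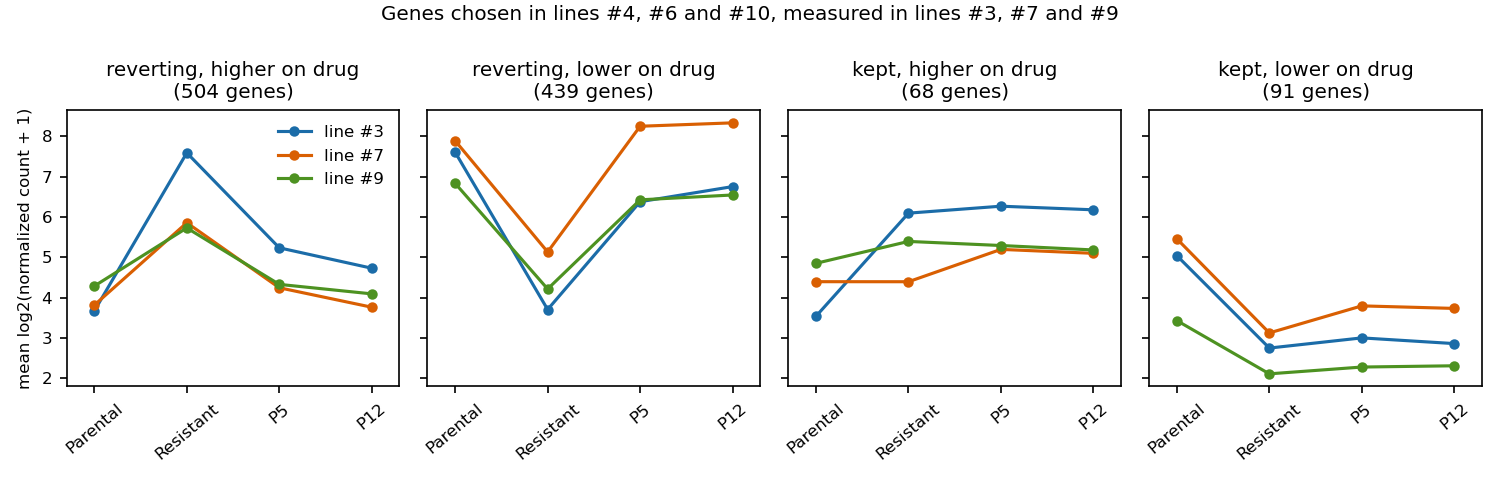
Mean log2(normalized count + 1) over the genes of each set (y axis) in the 4 states (x axis) of lines #3, #7 and #9, 1 point for each sample; the sets were chosen in lines #4, #6 and #10. Most of the way between Resistant and Parental is covered at P5 in the 2 reverting sets, with a further step of -0.24 to -0.51 or 0.08 to 0.37 by P12. Between P5 and P12 the kept sets move by at most 0.14.

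Genes that kept their level after withdrawal in the selecting lines, or went beyond the resistant level, moved little between P5 and P12. The 68 genes higher on drug and kept (47 past the filter) had late steps of -0.09, -0.10 and -0.11, and the 91 genes lower on drug and kept (25 past the filter) had steps of -0.14, -0.06 and 0.03. The gain on drug of the former was 2.56, -0.00 and 0.54 in lines #3, #7 and #9, so that line #7 did not share it. The 5 reverting genes with the largest change on drug in lines #4, #6 and #10 were Dcn, Acan, Hnf4a, Gpm6a and Slit3. Hnf4a, the regulator of the classical state, stood at 8546, 5.02, 229 and 358 in the 4 states of line #3, at 15312, 713, 9366 and 11090 in line #7, and at 50.04, 0, 0.649 and 0 in line #9. Acan, the proteoglycan aggrecan, was at 6135, 5.98, 3.75 and 2.92 in line #3, at 1488, 0, 749 and 2186 in line #7 and at 779, 5.18, 8.54 and 40.01 in line #9. Line #7 alone regained most of either gene. Gpm6a, a neuronal membrane glycoprotein, was at 28798, 718 and 177 in resistant, P5 and P12 cells of line #3 and at 6556, 785 and 205 in line #7, and listed at 0 throughout line #9. Slit3, a guidance ligand, was at 5955, 301 and 130 in line #3 and at 57.5, 14.0 and 6.80 in line #9, and listed at 0 in all 4 states of line #7. The 5 kept genes with the largest change were Dio3, AL591207.3, Pax2, Sox17 and Rps4l, and none of them passed the filter on low values. Sox17, an endoderm factor, was at 1794 and 218 in the parental cells of lines #3 and #7 and at most 1.88 at P5 or P12.

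The genes that moved the same way in every line were mostly of low or middle level, and none but Gm10052 passed the test. The 12 rises and 12 falls with the largest difference in the line that moved least are described here except for 1 rise, with 3 predicted genes besides Gm10052 left unnamed among the rises and 1 among the falls. Matn2, an adaptor protein of the matrix, went from 9.02 to 55.2 normalized counts in line #3, from 38.2 to 166 in line #7 and from 67.2 to 291 in line #9. Each P12 value was more than 4-fold its own P5 value (2.22 ± 0.30 on the log2 scale, adjusted p = 0.724). Bpifb4, of the lipid-binding BPI fold family, went from 109 to 586, from 113 to 623 and from 4614 to 11724 (2.07 ± 0.24, adjusted p = 0.457). In the fit of all 21 samples with the replicate block, its P12 minus P5 was -0.24. That estimate also draws on lines with P12 and no P5, whereas Bpifb4 was higher at P12 in each of the 3 lines with both. It was listed at 0 in the resistant cells of all 3 lines, and its rise from resistant to P5 had passed the test (8.59 ± 0.96, adjusted p = 0.00953).

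Ifitm1, an interferon-induced membrane protein, went from 439 to 1183 in line #3, from 12.9 to 94.1 in line #7 and from 570 to 1296 in line #9. Klhl1, an actin-binding Kelch protein, went from 5.42 to 26.4, from 619 to 1443 and from 264 to 896. Their differences of 1.80 and 1.69 on the log2 scale had an adjusted p of 0.892 each. The other rises were Plin4 (a lipid droplet coat protein), Hc (complement component C5), Klk10 (a kallikrein-related protease), Pcdh20 (a protocadherin), Sprr2a3 (a cornified envelope protein), Ptchd1 and AC121094.1, with P12 values between 1.59 and 451.

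S100a4, a calcium-binding protein of motile cells that stood first among the mesenchymal genes, went from 3247 to 7318 in line #3, from 10517 to 17956 in line #7 and from 8185 to 17095 in line #9 (1.00 ± 0.11, adjusted p = 0.457). P12 was also above the parental level in each line (896, 1503 and 13712) and above the resistant level (510, 1865 and 646).

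Among the falls, Adgrb2, an adhesion receptor of the brain angiogenesis inhibitor family, went from 83.5 to 17.2 in line #3, from 1534 to 463 in line #7 and from 55.0 to 13.0 in line #9 (-1.98 ± 0.27, adjusted p = 0.724). It had been at 2656, 3676 and 212 in resistant and at 4.82, 75.4 and 19.3 in parental cells, so that the late step ran toward the parental level. Dcn, the small proteoglycan decorin, was at 51487, 806 and 300 in resistant, P5 and P12 cells of line #3. The same states gave 1424, 1.92 and 0 in line #7 and 268, 247 and 94.3 in line #9. Parental Dcn values were 19.8, 3.11 and 2.90. Foxo6, a forkhead factor, was at 1565, 54.1 and 15.8 in line #3, at 2443, 184 and 70.6 in line #7 and at 942, 6.41 and 1.21 in line #9. Its difference between P12 and resistant cells passed the test (-6.79 on the log2 scale, adjusted p = 0.00575), while that between P5 and resistant cells had an adjusted p of 0.0254.

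Fgf5, a fibroblast growth factor, went from 101 to 21.3 in line #3, from 2.90 to 0 in line #7 and from 18.0 to 6.80 in line #9. Gbp3, an interferon-induced GTPase, went from 206 to 64.5, from 98.7 to 32.9 and from 27.3 to 3.90. Rragd, a small GTPase that relays amino acid supply to mTORC1, went from 53.7 to 20.1, from 26.9 to 11.2 and from 55.4 to 15.7. Ass1, of the urea cycle, went from 34.1 to 10.2, from 4.02 to 0.994 and from 544 to 200. The falls also held Angptl7, Reep1, Cma1 (mast cell chymase), Tchh (trichohyalin) and Bmpr1b (a BMP receptor). Angptl7 and Reep1 were at 1505 and 1013 at P5 of line #3 and at 148 and 154 at P12, but under 35 in the other lines at both times. Reep1, Cma1, Dcn, Tchh and Fgf5 were listed at 0 at P12 in at least 1 line.

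**Figure D3:**
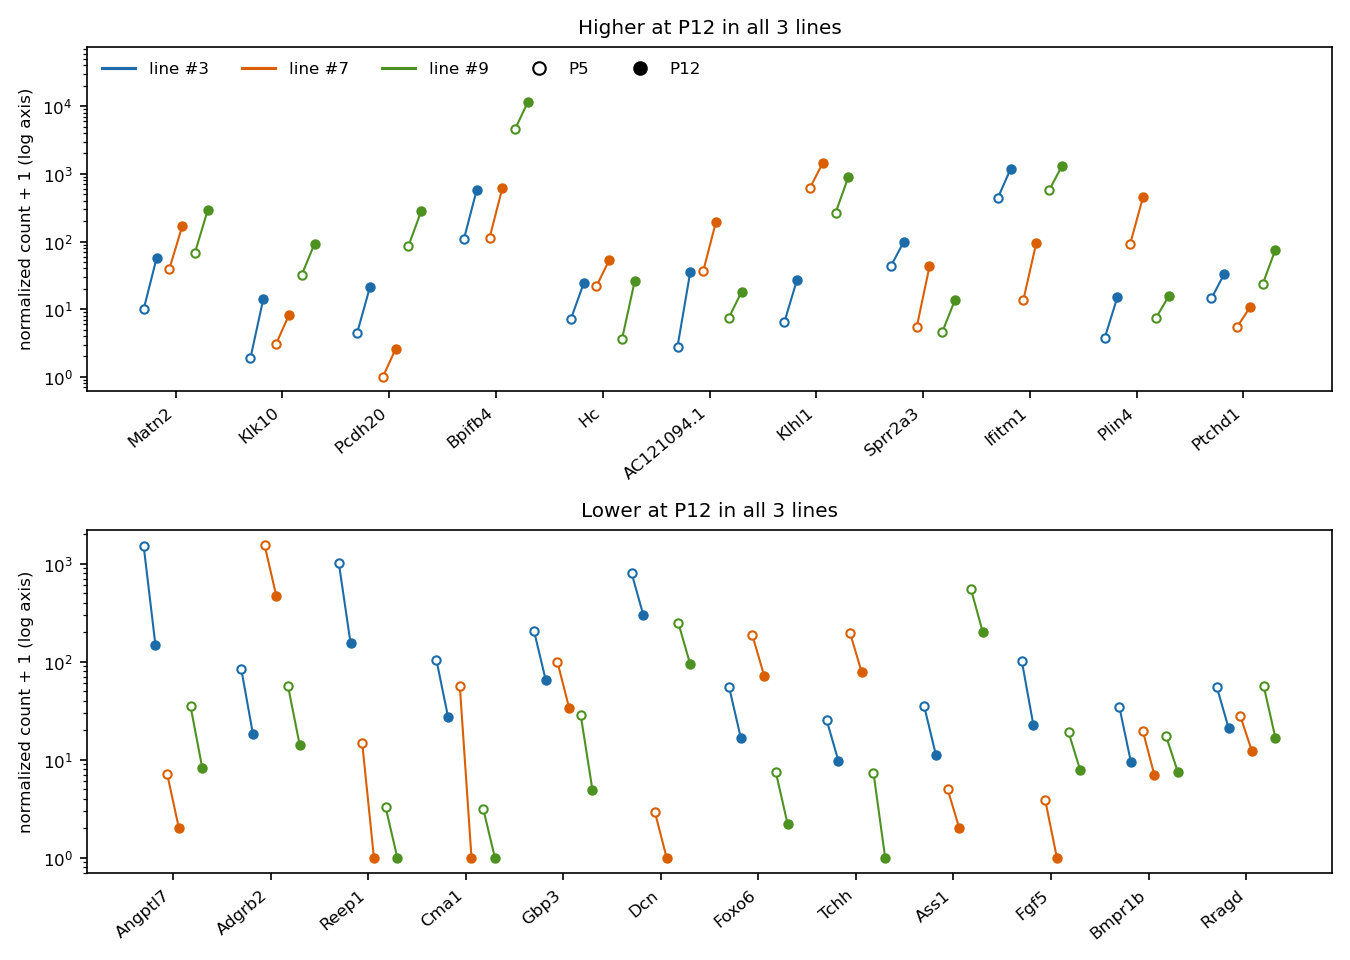
Normalized count + 1 (log y axis) at P5 (open points) and P12 (filled points) in lines #3, #7 and #9 for 11 of the rises (top) and the 12 falls (bottom), 1 pair of points for each line. Every pair runs in the same direction, while the levels of a gene differ between lines by up to 100-fold or more, as for Klhl1.

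Sterol and fatty acid synthesis was the list with the most even late difference. Cells make cholesterol by a chain of enzymes whose genes are induced together by SREBP transcription factors when sterol runs low. None of its 34 genes passed the test. P12 was higher in all 3 lines for 18 of the 34 (52.9%, against 12.8% of all genes tested) and lower in all 3 for 0 (against 13.5%). An unadjusted p under 0.05 (limma) was reached by 14 of the 34, all higher at P12. Over all genes tested 5.32% reached it in either direction, and 399 of 16329 were higher. The median difference was 0.19 on the log2 scale against -0.00 over all genes, and the list's mean was 0.28, 0.28 and 0.26 in lines #3, #7 and #9.

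Within the pathway, Hmgcs1, which makes HMG-CoA, went from 3748 to 5231 in line #3, from 4535 to 5773 in line #7 and from 6234 to 6926 in line #9. Fdps, which makes farnesyl pyrophosphate, went from 3059 to 4624, from 4067 to 5839 and from 7621 to 8226. Lss, which closes the sterol rings, went from 3671 to 4788, from 2497 to 3468 and from 4778 to 5671, and Tm7sf2, a sterol reductase, from 493 to 672, from 520 to 759 and from 306 to 611. P12 was the higher in every pair, by 0.33, 0.41, 0.37 and 0.66 on the log2 scale on average. Insig1, which holds SREBP in the endoplasmic reticulum, went from 8076 to 9507, from 6986 to 10406 and from 3660 to 5903. Not all members shared the direction. Srebf2, which encodes an SREBP factor, was at 11818 and 11627, at 18053 and 17036 and at 12241 and 13196.

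Relative to the parental cells the sterol list was still low. On the log2 scale its mean difference from parental was -1.26 in line #3 and -0.47 in line #9 at P5, and -0.98 and -0.21 at P12, with line #7 near line #3 at both times. In line #3 the level at P5 was also below that on drug, with a difference of -0.53.

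The promoter sequences of RefSeq (GRCm38.p6) covered 23 of the 34 genes. The letters TCACNCCAC, a form of the sterol regulatory element, were searched on both strands of the 250 bases before the start. They were found in 1 of the 23 genes, Hmgcs1, and in 1.27% of the 10942 tested genes with a promoter sequence. The stretch is shown with these letters in capitals, 137 bases before the start (chr13:119690169-119690267, plus strand), since it belongs to a member with the same direction in all lines.
Hmgcs1: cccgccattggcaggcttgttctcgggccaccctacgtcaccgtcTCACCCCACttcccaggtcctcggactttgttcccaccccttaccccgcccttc

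Interferons induce the interferon-stimulated genes, and the genes of MHC class I presentation load peptides for display to T cells. More members of either list were lower than higher at P12 in all lines, and none was called. Of 34 interferon-stimulated genes tested, 0 were called, 10 were lower and 3 higher at P12 in all 3 lines (29.4% and 8.82%, beside 13.5% and 12.8% of all genes), and the median difference was -0.23. Without line #9 this median was -0.093. The mean was -0.23, -0.22 and -0.53 in lines #3, #7 and #9. Gbp2 went from 147 to 74.4, from 235 to 64.4 and from 31.6 to 18.5, and Gbp7, a further guanylate-binding protein, from 391 to 269, from 110 to 68.5 and from 17.2 to 4.10. Oasl1, of the oligoadenylate synthase family, went from 309 to 159, from 100 to 47.0 and from 7.43 to 0. Rtp4, Isg20 and Ifit2 were the members with a positive difference in each line, at most 0.65 on the log2 scale. Ifitm1, described above as interferon-induced, was not on this list. It was higher at P12 in each line, by 1.80 on the log2 scale on average, so that the counts depend on the genes listed. Mx1, an antiviral GTPase, was higher at P12 in lines #3 and #9, at 511 against 108 and 490 against 76.9, and lower in line #7, at 23.9 against 65.1.

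Of 22 MHC class I genes tested, 0 were called. In all lines 7 were lower and 1 higher (31.8% and 4.55%, beside 13.5% and 12.8% of all genes). The median was -0.16, with means of -0.15, -0.20 and -0.15. Tap2, a subunit of the peptide transporter, went from 525 to 461, from 46.1 to 26.2 and from 170 to 78.2, although its difference of -0.70 became 0.13 in the fit of 21 samples with the replicate block. H2-Q4, a class Ib gene with close relatives in the table, went from 854 to 565, from 22.4 to 10.5 and from 46.3 to 34.1. The heavy chain H2-K1 and B2m did not share one direction, with H2-K1 at 4222 and 3275, at 1902 and 1104 and at 307 and 343. Psmb10, an immunoproteasome subunit, was the one with a positive difference in each line.

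**Figure D4:**
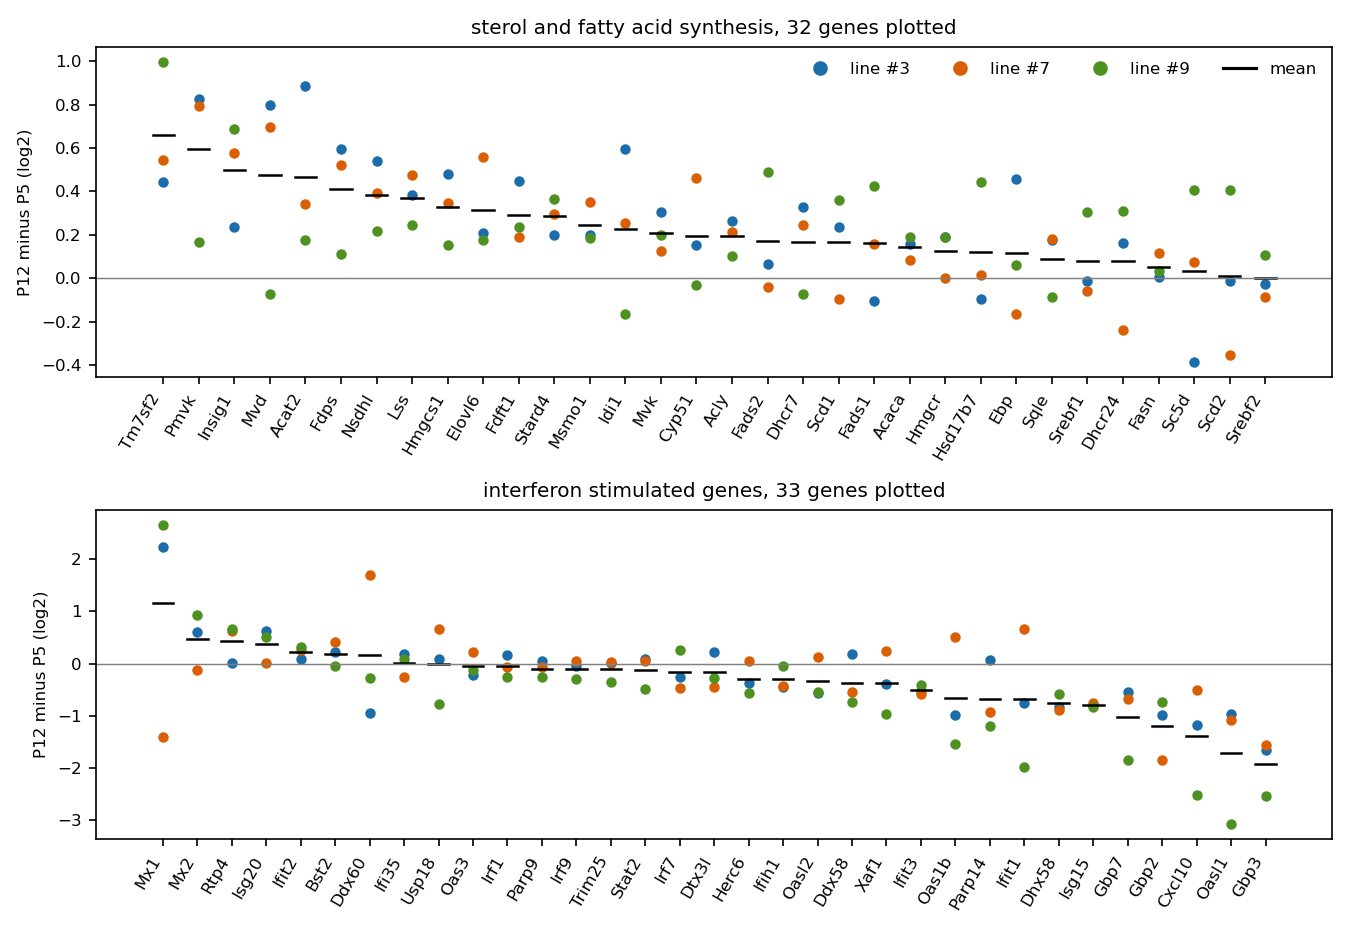
Log2 difference P12 minus P5 (y axis) in lines #3, #7 and #9 (points) and their mean (bar) for 32 of the tested genes of sterol and fatty acid synthesis (top) and 33 of the tested interferon-stimulated genes (bottom), ordered by mean. In 17 of the plotted sterol genes all 3 points lie above 0 and in 0 all below; of the plotted interferon-stimulated genes 9 have all points below 0 and 3 above.

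No single epithelial or mesenchymal gene passed the test between P5 and P12, and a common step of either list was not tested. Cdh1, E-cadherin, stood at 27906, 73.1, 2106 and 2808 in parental, resistant, P5 and P12 cells of line #3. It was at 53229, 16401, 17116 and 18598 in line #7 and at 816, 8.68, 46.2 and 44.0 in line #9. P5 and P12 lay below the parental level in each line and differed from each other by 0.16 ± 0.14 on the log2 scale (adjusted p = 0.912). Cdh2, N-cadherin, was at 18543, 9506 and 5211 in resistant, P5 and P12 cells of line #3, at 29631, 5064 and 4372 in line #7 and at 10012, 6022 and 7709 in line #9 (P12 minus P5, -0.24 ± 0.22, adjusted p = 0.914). Of 31 epithelial genes tested, 0 were called. In all lines 0 were higher and 4 lower (0% and 12.9%, beside 12.8% and 13.5% of all genes). The median was -0.06 and became 0.07 without line #7. Dsc2, a desmosomal cadherin, went from 385 to 144, from 1476 to 706 and from 7.12 to 1.39, and Ehf, an epithelial ETS factor, from 9.49 to 2.87, from 211 to 147 and from 10.4 to 4.07. The mean difference of the list from parental was -3.78, -1.45 and -2.08 at P5 of lines #3, #7 and #9 and -3.69, -1.90 and -2.10 at P12.

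Of 30 mesenchymal genes tested, 0 were called. In all lines 3 were higher and 5 lower (10.0% and 16.7%, beside 12.8% and 13.5% of all genes). The median was -0.14, with means of -0.20, -0.21 and -0.28. Besides S100a4, Prrx1, a mesenchymal homeobox factor, went from 2861 to 4466, from 9.00 to 15.5 and from 6382 to 7675. Pdgfrb, the PDGF receptor beta, went from 5853 to 5161, from 79.5 to 11.2 and from 8117 to 5039, and Nnmt, nicotinamide N-methyltransferase, from 299 to 190, from 56.8 to 21.4 and from 15.8 to 3.09. In line #3 the list's mean was 4.38 above parental at P5 and 4.14 at P12, and in line #7 0.56 and 0.26. In line #9 it was -0.16 and -0.37. The 9 fibroblast markers tested had a median of -0.64, with means of -0.70, -0.53 and -0.91 in lines #3, #7 and #9. In all lines 0 were higher and 4 lower (0% and 44.4%, beside 12.8% and 13.5% of all genes), and 0 were called. The summed level of the 12 fibroblast markers measured was 411 to 83010 normalized counts at P5 and 252 to 78498 at P12. These ranges run over lines, which differed more than times, and do not show the difference within each pair. Leukocyte and macrophage markers summed to 916 to 11982 at P5 and 929 to 12276 at P12, with Cd14 the highest member and with 6 of 10 tested, 3 lower and 1 higher. Ptprc, the pan-leukocyte marker CD45, stayed at 18.7 or less. Endothelial markers summed to at most 345 at P5 and 206 at P12. The part of such cells in the differences was not tested.

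Of 31 collagen and matrix genes, 3 were higher and 9 lower in all lines (9.68% and 29.0%, beside 12.8% and 13.5% of all genes), with a median of -0.06. The largest of these rises was Matn2, described above. Thbs2, a thrombospondin, went from 819 to 1109, from 14.5 to 34.8 and from 62.8 to 67.5. Tnc, tenascin C, went from 6746 to 3545, from 54.1 to 5.25 and from 2127 to 1939. The 19 YAP and TEAD targets had a median of -0.13 with 3 higher and 5 lower, and Tgfb2 went from 1939 to 1081, from 43.0 to 14.8 and from 549 to 473. None of either list was called.

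The gastric and classical subtype genes went different ways in the lines. Of 23 tested, 0 were called. In all lines 0 were higher and 4 lower (0% and 17.4%, beside 12.8% and 13.5% of all genes). The mean was 0.51, -0.81 and -0.15 in lines #3, #7 and #9. The median was 0.05 and ran from -0.24 to 0.22 with a line left out. Muc5ac, the gastric surface mucin, went from 30351 to 2874 in line #7, while it was at 148 and 207 in line #3 and 20.2 and 10.0 in line #9. Gkn2, a gastrokine, was at 749 and 52.5 in line #7, at 33.3 and 45.2 in line #3 and listed at 0 in line #9. Hnf4a and Cdh17 of line #7 did not share the loss, with 9366 and 11090 and with 35464 and 38923. Cldn18, the gastric claudin, was lower at P12 in each line, from 31592 to 22820 in line #7 and from values under 30 in the others. Gata6 was lower as well, from 3181 to 1947, from 1083 to 974 and from 74.7 to 43.5.

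The remaining lists held no gene past the threshold either. Their counts stand beside 12.8% higher and 13.5% lower in all lines over all genes tested. Of 36 replication and mitosis genes 4 were higher and 4 lower in all lines, with a median of -0.01 and means between -0.06 and 0.09. Cenpa, the centromeric histone, went from 4875 to 5541, from 2968 to 4549 and from 3622 to 3878, and Mcm3, of the replicative helicase, from 8592 to 6429, from 4897 to 4277 and from 8017 to 7495. The 33 glycolysis and hypoxia genes had a median of 0.09 with 5 higher and 3 lower, and the 33 NRF2 and glutathione genes one of 0.06 with 4 higher and 1 lower. Gstm1, a glutathione transferase with close relatives, went from 884 to 1664, from 964 to 2230 and from 2182 to 2546. Of 25 genes of the DNA methylation machinery 2 were higher and 8 lower, with a median of -0.02. Of 32 ATF4 and amino acid stress genes 0 were higher and 8 lower, with a median of -0.14 that became 0.08 without line #3, and a mean of -0.64 in line #3, 0.12 in line #7 and -0.07 in line #9. Slc1a4, a neutral amino acid transporter, went from 2116 to 1311, from 3528 to 2302 and from 2960 to 2203 (-0.58 ± 0.11, adjusted p = 0.892). Of 21 chemokines and cytokines 1 was higher and 5 lower, with means of 0.28, -0.84 and -0.34. Cx3cl1 went from 517 to 1475, from 4408 to 5193 and from 8141 to 9525, and Ccl20 from 11.7 to 1.38, from 122 to 41.1 and from 49.3 to 28.7.

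**Figure D5:**
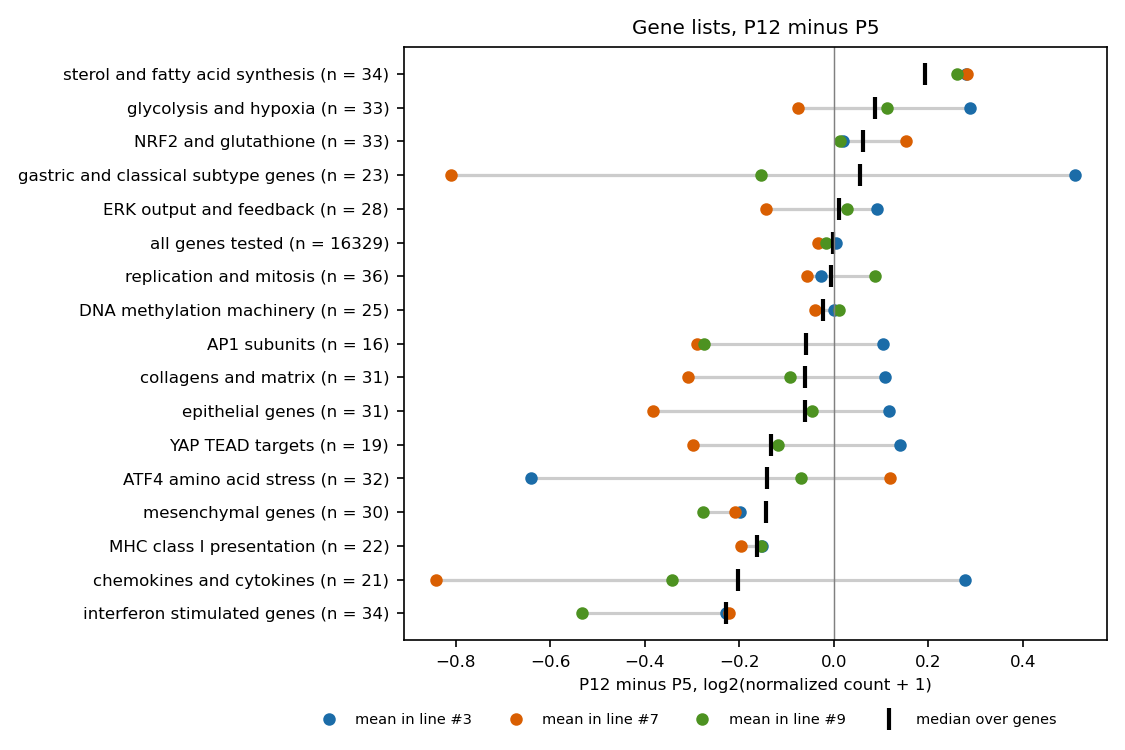
P12 minus P5 on the log2 scale (x axis) for 16 gene lists and for all genes tested (y axis, number of tested genes in brackets), with the mean of the list in each line as points and the median over genes as a bar. The 3 points of sterol and fatty acid synthesis lie together at 0.26 to 0.28, whereas those of the gastric and classical genes run from -0.81 to 0.51.

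The largest steps of single lines have 1 pair of samples behind each and no test, and some were shared by a second line. Fmnl1, a formin of the actin cytoskeleton, went from 52.3 to 1057 in line #3, and from 27.6 to 29.5 and from 1318 to 1837 in lines #7 and #9. Kcnh1, a potassium channel, went from 23.4 to 344 in line #3 and from 37.1 to 131 in line #9, but from 118 to 52.1 in line #7. Col14a1, a fibril-associated collagen, went from 455 to 56.9 in line #3 and from 63.8 to 35.5 in line #9, and was at 2.30 and 2.06 in line #7. These steps were thus the largest in line #3, with line #9 on the same side. Ndnf, a secreted neurotrophic factor, went from 614 to 29.4 in line #7 and from 273 to 89.2 in line #9, and was under 5 at both times in line #3. Fat2, an atypical cadherin, went from 255 to 17.4 in line #7, from 22.6 to 20.2 in line #3 and from 9.57 to 20.5 in line #9. Top3b, a topoisomerase, was listed at 0 at P5 of line #7 and at 518 at P12, but also at 0 in parental cells of line #3 and resistant cells of line #9. In line #9 Tspan11, a tetraspanin, went from 86.4 to 614, which it shared with line #3 (104 to 1377) and not with line #7, where it was listed at 0. Acta2, smooth muscle actin, went from 594 to 87.4 in line #9 and from 3319 to 1108 in line #3, and was at 0 and 2.05 in line #7.

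Some of the largest single-line steps lay in genes with an identical copy. Gm28437 in line #7 went from 0 to 1017 and is identical over its 783 bases to the mitochondrial mt-Co3, which stood at 103366 or more in all 6 samples. Gm2260 in line #3 went from 259 to 0 and in line #9 from 0 to 82.2, and its 657 bases are all found in an Anxa11 transcript. Gm14440 in line #9 went from 338 to 0, with all 3382 bases in Gm14288. For these genes the share of reads given to each copy cannot be told apart from a change in level. Trp53, whose floxed exons are deleted while a remnant transcript can persist, stood at 441 and 475, at 348 and 395 and at 245 and 276 (0.15 ± 0.17).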

How the data were processed

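RNA of 6 murine PDAC lines was sequenced in 4 states, and P5 and P12 of lines #3, #7 and #9 were compared here. Members and gene lists were chosen with earlier results of these data known. The authors made stranded mRNA libraries, quantified reads with Salmon 0.12, normalized with DESeq2 1.18 and deposited 1 table of normalized counts, here treated as a signal and not as reads; the build per the labels is mm10. The sequencer of each sample is not given in the sources used here. Read counts could not be recovered, so that no count model was fitted.

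Genes with at least 10 normalized counts in at least 3 of the 6 samples were tested on log2(value + 1), so that fold changes of low genes are understated. limma 3.58.1 (R 4.3.3) with an intensity trend, the line as a block and Benjamini-Hochberg adjustment was used, with an adjusted p under 0.01 and an absolute log2 difference over 1 as the threshold. ± after a log2 difference is the SE of this fit. P-values measure the spread between 3 lines. The states of a line come from 1 tumor, and its P5 and P12 deviated together (r = 0.84, 0.90 and 0.87 across genes). A fit over 12 samples gave the other contrasts. Reverting genes passed 1 on the log2 scale in each of lines #4, #6 and #10. Kept genes were within 0.5 of the resistant level at P12 or beyond it.

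Named genes were the 12 rises and 12 falls with one sign in all lines and the largest difference in the line that moved least, all genes past the threshold, the 2 largest such rises and falls of each list, the 3 largest steps of each line at a mean of at least 100, Cdh1, Cdh2, Jun, Trp53, Dusp6, Spry4 and Etv4, and the 5 largest reverting and kept genes; some are given by count only or not reported here, and list members beyond these, such as Muc5ac, Hmgcs1 or Gata6, were chosen after their values were seen. Lists are described by counts and medians, with no test. Transcripts were compared with blastn 2.17.0 on GENCODE M21. The fit was tested on simulated data. Alternatives were the pseudocount, the filter, upper quartile scaling, the block, the samples fitted, the trend, the threshold and each line left out.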

Additional observations from a re-analysis of the deposited data

Results flagged for a closer look

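Some named genes moved by more than 1 on the log2 scale upward in one line and by more than 1 downward in another between P5 and P12. With 1 pair of samples in each line, these differences between lines were not tested. The gap between the extreme lines was 4.99 for Kcnh1, 4.82 for Fat2, 4.06 for Mx1, 4.36 for Acta2 and 2.94 for Pax2, which did not pass the filter on low values. The rise of Acta2 was that of line #7, from 0 to 2.05 normalized counts, which stands for a few reads. In lines #3 and #9 Acta2 was lower at P12. For Gm2260, whose bases are all found in an Anxa11 transcript, the gap was 14.4.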

How the results depend on the processing

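The single call between P5 and P12 depended on the processing. The count stayed at 1 with a pseudocount of 0.5 or 8, upper quartile scaling or an adjusted p under 0.05. It was 0 without the filter, at a mean of at least 100, without the trend, in the 6 samples with no replicate block and in the paired or unpaired fits of 12 and 21 samples, and 0 to 0 with each line left out; no gene was lower in any of these fits, and from 24 to 1298 genes had an unadjusted p under 0.05. The adjusted p of Gm10052 ran from 0.00158 to 1.00.

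Over 12 samples, with no replicate block, P5 against resistant gave 7 genes in place of 22 and P12 against resistant 9 in place of 36, and either time against parental 1 in place of 2. A pseudocount of 8 gave 14 genes for P5 against resistant. An adjusted p under 0.05 gave 87 and 208 genes, and 4 and 5 against parental.

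The median of the sterol list was 0.27 as a mean and 0.22 to 0.24 with a line left out, against 0.19. That of the mesenchymal genes was -0.20 with a pseudocount of 8 and -0.23 as a mean. Left-out lines gave -0.28 to -0.00872 for AP1 subunits, -0.081 to 0.029 for DNA methylation and -0.19 to -0.11 for MHC class I, which was -0.12 without the filter. The kept genes higher on drug gave -0.27 for a selection above 2, -0.015 with a pseudocount of 8 and 0.11 as a median, and those lower on drug -0.18 as a median. The cause of these shifts was not tested. Other list and set values moved by less than the spread of the lines, although the median of 6 of the 16 lists changed sign with some line left out, and that of the interferon-stimulated genes was -0.093 without line #9. Of 98 single genes, 15 changed sign under some alternative, none of them called, 12 with a line left out and 5 in the fit of 21 samples with the replicate block, where Bpifb4 was at -0.24 in place of 2.07 and Tap2 at 0.13 in place of -0.70. Depth limits genes under about 4 normalized counts, where a few reads make a fold change.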
